A study of Xenopus laevis with 27 samples.

Results

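The genes described here are the Wnt ligands, their receptors and the proteins that block or relay the Wnt signal, measured in frog embryos in which the Notch pathway had been pushed up or down. A probe set was taken as a member when its gene symbol on the array began with wnt, fzd, sfrp, dkk, kremen, axin, rspo, lrp5, lrp6, dvl, tcf7, lef1 or frzb. The rule left out copies of the ligand gene wnt8a, which removed 1 probe set that matched. This gave 77 of 32635 probe sets, which stand for 53 symbols and 43 genes once the copy letters are dropped. The letters .L and .S after a symbol tell apart the copy on the long chromosome of a pair from that on the short, as this frog is allotetraploid. By role, Wnt ligands had 17 probe sets of 13 symbols and R-spondins 1 of 1. Frizzled receptors had 19 of 11, co-receptors 3 of 2 and secreted Frizzled-related proteins 12 of 9. Dickkopf or Kremen proteins had 6 of 5, Axin or Dishevelled proteins 9 of 7 and TCF/LEF factors 10 of 5. The copies of a gene count as separate symbols here. The rule used symbols and no expression value, but it was set with earlier results of these data known.

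The embryos were of Xenopus laevis, and each group had been given 1 RNA, at a dose of 1.5 ng, in 1 of the cells that the first division makes, so that mainly one side of the body inherits it. NICD RNA, for the Notch intracellular domain, turns the pathway on. DBM RNA turns it down, through a Suppressor of Hairless protein whose DNA contact is mutated. GFP RNA, for green fluorescent protein, was the injection control. Embryos were taken at stage 18 (late neurula), stage 28 (tailbud) or stage 38 (swimming tadpole). RNA was taken from 10 whole embryos for each stage and construct, and the arrays were Affymetrix GeneChips for Xenopus laevis, version 2.0. There were 9 groups of 3 arrays. The array titles give a replicate number but do not say that the 3 came from separate embryos, so the p-values measure only the spread between these arrays, which may be technical. The uninjected side of every embryo is part of the RNA, and in such bulk RNA fewer cells of a type cannot be told apart from less RNA per cell.

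Wnt proteins are secreted signals that bind Frizzled receptors together with the co-receptors Lrp5 and Lrp6. In the canonical branch the signal passes through Dishevelled and takes Axin away from the complex that destroys β-catenin, so that β-catenin can act with TCF/LEF factors on target genes. R-spondins raise the number of receptors on the cell surface, secreted Frizzled-related proteins such as Frzb bind Wnt outside the cell, and Dickkopf1 acts on Lrp5 and Lrp6 with Kremen proteins as partners. In the frog embryo Wnt signals pattern the trunk and tail, the neural crest and the brain, and the head forms where antagonists hold them down.

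Levels are given on the log2 scale, as summarized by RMA, so a difference of 1 is a doubling, and a level of 1 probe set cannot be set against that of another. Array medians were 6.83 to 6.99. Over the 9 groups, member means ran from 3.70 to 11.99, and the SD over 3 arrays had a median of 0.138. In 31 of the 77 members no group mean reached 6.92, the median level of all probe sets, and such dim probe sets are less sensitive to change. The Notch readouts hes5.1, hey1 and nrarp were higher with NICD than with GFP in 6 of 6 probe sets at stage 18, by 1.11 to 3.14, in 4 of 6 at stage 28 and in 0 of 6 at stage 38, where the differences were 0.00 to 0.39. With DBM, 0 of these 6 passed at any stage. Defining markers of nervous system, muscle and epidermis stood at group means of at least 5.61 throughout. That lowest mean, in a probe set of ncam1.S with DBM at stage 18, lay below 6.92, so the level alone does not show presence. In the same list, GFP means at stage 18 were 4.40 in hbd.S and 7.55 in hba3.L, both globins, and 4.26 to 5.38 in the serum protein probe sets.

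The test was limma on all 27 arrays, and a probe set was called at an adjusted p below 0.05 over all 32635. Arrays that carry the same replicate number at a stage deviated together, so counts of members called for a construct are given with the number as a block as well. The block compares arrays of the same number with each other. At stage 18 arrays numbered 2 and 3 deviated together across numbers as well, with correlations of 0.477 to 0.573. The blocked counts at that stage therefore rest on a pairing of numbers 2 and 3 that the values do not show. Counts between GFP stages are without the block unless stated. NICD and DBM were each set against the same GFP arrays. The percentages of all probe sets called are given as background beside the members' counts.

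In GFP embryos most members fell from stage 18 to stage 28, and fewer fell from there to stage 38. From stage 18 to stage 28, 42 members fell and 15 rose, where 29.4% of all probe sets were called lower and 22.0% higher. From stage 28 to stage 38, 26 fell and 11 rose, against 22.4% lower and 18.8% higher in all probe sets. With the block 39 fell and 14 rose in the first interval, and 24 fell and 13 rose in the second. The shares of all probe sets called with the block between GFP stages are not given, so these blocked counts have no background. The median member difference was -0.32 for the first interval and -0.06 for the second, beside -0.09 and -0.02 over all probe sets. The mean was highest at stage 18 in 47 members, at stage 28 in 7 and at stage 38 in 23. These counts include members called at neither step, and the like counts over all probe sets are not given. Both intervals brought a fall in 19 members, a rise in 4 and no call in 15. Hybridization control probe sets, which measure no embryo gene, averaged 11.07, 11.22 and 11.15 on the GFP arrays of stage 18. For stage 28 their averages were 10.21, 10.36 and 10.34, and for stage 38 they were 11.06, 10.78 and 10.97. How far array processing adds to any step between GFP stages given here was not tested.

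Among the ligands, wnt5b.S had the largest fall. Its GFP arrays read 9.12, 9.03 and 9.12 at stage 18, 6.49, 6.25 and 6.66 at stage 28, and 5.67, 5.26 and 5.88 at stage 38, with no overlap between stages. The first step was -2.62 ± 0.18 (SE), a 6.16-fold fall (limma-adjusted p = 4.17e-11). Wnt5b belongs to the Wnts best known for signaling without β-catenin. wnt11b.L, the maternal Wnt that in Xenopus acts in axis formation and gastrulation, stood at 10.69, 9.87 and 9.85 at stage 18 and at 8.43, 8.22 and 8.01 at stage 38, and its step from stage 28 was -1.22 ± 0.26 (adjusted p = 6.46e-04). wnt3a.S, wnt1.L and wnt4.L were also called lower at stage 28 than at stage 18. wnt7b.L took the other way. The first of its probe sets rose from 4.88, 5.81 and 5.57 to 6.78, 7.18 and 7.02 and then to 7.99, 7.96 and 8.34, by 1.57 ± 0.20 and 1.11 ± 0.20, and its second probe set rose by 0.55 ± 0.17 at the first step (adjusted p = 0.00929, and 0.0739 without GFP stage 18 replicate 1). wnt11.S rose by 0.50 ± 0.13 at that step. The probe sets of wnt5a-a, wnt5a.S and wnt6.S were called at neither step.

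**Figure D1:**
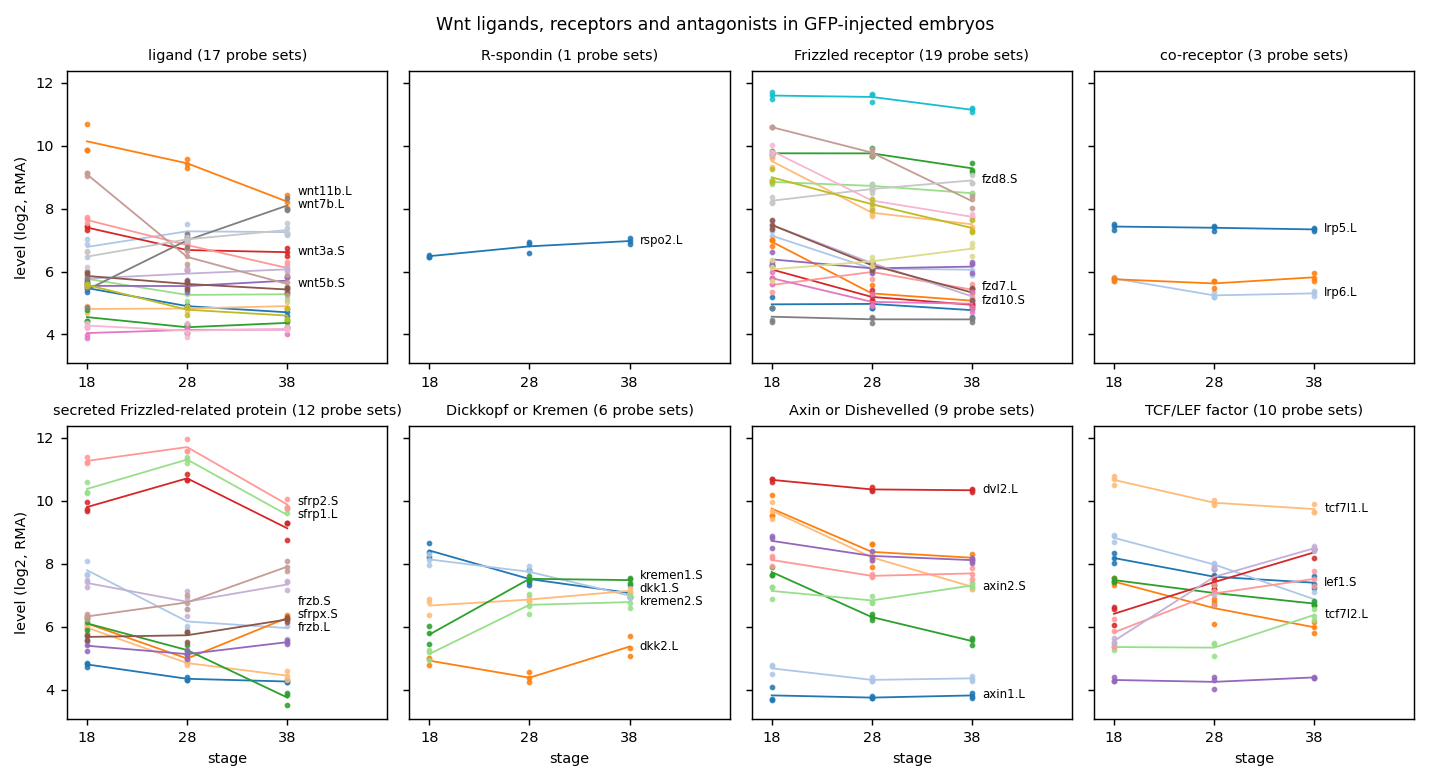
Level (log2, RMA) of all 77 members by stage (18, 28, 38) in embryos injected with GFP, in panels by role. Each line joins the group means of 1 probe set, points are the 3 arrays of a stage, and a label stands at the first probe set of the gene, so a reader can follow wnt5b.S and axin2.S down and wnt7b.L, kremen1.S and kremen2.S up.

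Of the 19 Frizzled probe sets, 10 fell and 2 rose at the first step, and 10 fell and 0 rose at the second, where 1 rose with the block. Over all probe sets 29.4% were called lower and 22.0% higher at the first step, then 22.4% and 18.8%. Most of the first falls were in probe sets of fzd7.L and the fzd10 copies. The second falls of a fzd10.S probe set (-0.37) and of fzd3.L (-0.23) were near the threshold. Each was lost without GFP stage 28 replicate 3 (adjusted p = 0.084 and 0.103) or GFP stage 38 replicate 1 or 2. The 2 probe sets of fzd10.S, a receptor of the dorsal neural tube, fell by 1.64 each from stage 18 to stage 28 (SE 0.14 and 0.12). fzd7.L, a receptor used in early Xenopus development, had 5 probe sets, and all 5 fell at the first step, by 0.75 to 1.58. At the second step 4 of these 5 fell, and the difference of the fifth was -0.06. fzd8.S, a receptor of the anterior neural plate, gave no such common course over its 4 probe sets. One of them fell at both steps, from a mean of 8.99 to 8.14 and 7.38, another was called at neither, one more rose from 8.25 to 8.62 at the first, and the brightest fell from 11.55 to 11.14 at the second. What each of these probe sets detects was not tested, so no single direction is given for fzd8.S, and its 1 rise was lost without GFP stage 28 replicate 2 (adjusted p = 0.0558). The co-receptor lrp5.L was called at neither step, and of the 2 probe sets of lrp6.L one fell by 0.54 at the first and the other was not called.

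The secreted antagonists split. sfrp2.S stood at 11.20, 11.22 and 11.38 at stage 18, at 11.58, 11.58 and 11.96 at stage 28 and at 10.07, 9.79 and 9.80 at stage 38. The early rise was 0.44 ± 0.14 (adjusted p = 0.0132, and 0.0961 without GFP stage 28 replicate 3). The level then dropped by 1.82 ± 0.14, a 3.54-fold fall (adjusted p = 1.00e-09). Both probe sets of sfrp1.L took the same course, with rises of 0.93 and 0.91 and falls of 1.76 and 1.59. frzb.L fell from 8.07, 7.63 and 7.68 to 6.56, 6.01 and 5.92 at the first step, by 1.63 ± 0.19, and was not called at the second. Its copy frzb.S fell from 6.29, 5.95 and 6.07 to 4.97, 5.11 and 4.89 and then rose to 6.24, 6.24 and 6.37, by 1.29 ± 0.15 (adjusted p = 2.71e-07). The frzb.L and frzb.S copies therefore fell together first, and only frzb.S was called higher later, while the difference between the copies was not tested. Late rises were also called in both probe sets of sfrpx.S (1.14 and 0.50), in sfrp5.L (0.38) and in sfrp5.S (0.55). Both sfrp5 calls were lost without GFP stage 28 replicate 2 (adjusted p = 0.0502 and 0.109). In all, 5 of the 12 secreted Frizzled-related probe sets rose at the second step and 5 fell. Over all probe sets 18.8% were called higher there and 22.4% lower. Both probe sets of frzb2.L fell at both steps, but the second fall of one (-0.40) had an adjusted p of 0.0674 with the block and lost its call without GFP stage 28 replicate 1 (0.0522) or 3 (0.0624) or GFP stage 38 replicate 1 (0.057) or 2 (0.1).

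Both Kremen genes, which encode receptors for Dickkopf, rose early. kremen1.S read 5.46, 6.01 and 5.79 at stage 18 and 7.47, 7.61 and 7.49 at stage 28, a rise of 1.77 ± 0.15 or 3.42-fold. kremen2.S rose from 4.95, 5.20 and 5.25 to 7.03, 6.67 and 6.39, by 1.56 ± 0.20, and neither was called from stage 28 to stage 38. dkk1.S, the head inducer Dickkopf1, fell at both steps in both probe sets. dkk2.L fell by 0.54 ± 0.17 at the first step (adjusted p = 0.0117, and 0.0537 without GFP stage 28 replicate 2) and rose by 0.99 ± 0.17 at the second. For dkk1.S the first fall of one probe set (-0.40) was lost without replicate 1 of GFP at stage 18 (adjusted p = 0.053) or stage 28 (0.0621), and the second fall of the other (-0.44) without GFP stage 28 replicate 2 (0.137) or GFP stage 38 replicate 1 (0.0766) or 3 (0.0776). Among the relays, axin2.S, a feedback target of Wnt signaling itself, fell at both steps in both probe sets, by 1.48 and 1.43 and then by 0.93 and 0.76. Its copy axin2.L fell by 1.38 at the first only. Of the 9 Axin and Dishevelled probe sets, 8 fell and 0 rose at the first step, dvl2.L with a difference of -0.30 among them. Over all probe sets 29.4% were called lower and 22.0% higher. With the block 7 fell, as axin1.S (-0.37) then had an adjusted p of 0.0577. Without the block the axin1.S call was lost when any of 4 arrays was left out (0.0614 to 0.086). The same held for dvl1.L (-0.30), also with 4 arrays (0.118 to 0.171).

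The TCF/LEF factors went different ways as well. tcf7.S, tcf7l1.L and tcf7l1.S fell at both steps, and lef1.S fell at the first. Some of these falls were near the threshold. The second fall of tcf7l1.L (-0.20) had an adjusted p of 0.0769 with the block and was lost without 4 of the 6 arrays (GFP stage 28 replicates 2 and 3, GFP stage 38 replicates 1 and 2; 0.0897 to 0.173). For tcf7l1.S the second fall (-0.34) was lost without any of these 4 or GFP stage 38 replicate 3 (0.0522 to 0.266), and the first (-0.41) without GFP stage 18 replicate 2 (0.0514) or GFP stage 28 replicate 1 (0.149). The second fall of 1 tcf7.S probe set (-0.61) was lost without GFP stage 28 replicate 2 (0.0561) or 3 (0.0715) or GFP stage 38 replicate 1 (0.0506). tcf7l2.L rose. Its largest step was in a probe set that read 5.51, 5.64 and 5.50 at stage 18 and 7.02, 7.88 and 7.84 at stage 28, a rise of 2.03 ± 0.20 or 4.09-fold (adjusted p = 1.30e-08). At the first step 3 of the 5 probe sets of tcf7l2.L rose and at the second another 3, of which 2 had risen before, and 1 dim probe set at about 4.3 was called at neither. Tcf7l1 is known mainly as a repressor and Lef1 mainly as an activator of Wnt targets, and Tcf7l2 marks parts of the brain and the gut.

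**Figure D2:**
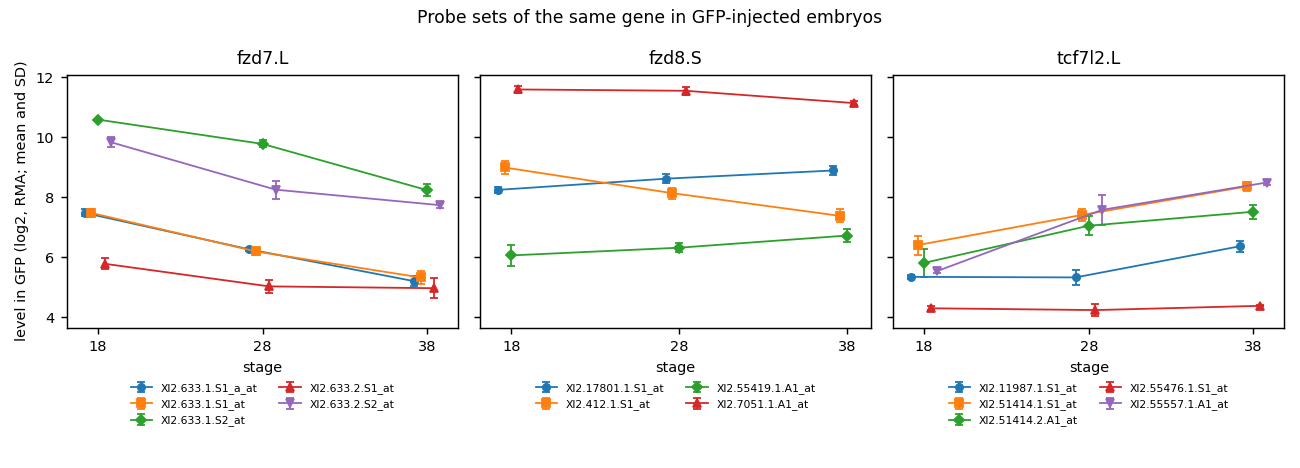
Mean level (log2, RMA) with SD over 3 GFP arrays of each stage, by probe set of fzd7.L (5), fzd8.S (4) and tcf7l2.L (5). The lines of fzd7.L all go down, those of fzd8.S cross, and those of tcf7l2.L go up except for 1 flat dim probe set.

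NICD at stage 18 raised 1 member, kremen2.S. The GFP arrays read 4.95, 5.20 and 5.25, the NICD arrays 5.86, 6.60 and 6.43, and the DBM arrays 4.89, 5.18 and 5.47. All NICD arrays stood above all others, with a difference from GFP of 1.17 ± 0.20, a 2.24-fold rise (adjusted p = 0.0034), and the call held when any 1 array was left out (highest adjusted p = 0.0273). It also held with the block (adjusted p = 8.46e-07), where the differences by replicate number were 0.90, 1.41 and 1.19. It was lost when only the 6 arrays of the comparison were fitted (adjusted p = 0.165). kremen2.S is dim, and its highest group mean, 6.82, lay below the median of all probe sets. kremen1.S differed by -0.03 ± 0.15. At stage 28, when GFP embryos had themselves reached a kremen2.S mean of 6.70, the difference was 0.11, and at stage 38 it was -0.01.

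That 1 of 77 members compares with 1.61% of all probe sets called in this comparison. With the block 15 members were called, 12 higher and 3 lower, or 19.5%, where 13.2% of all probe sets were called. The count without the block went from 1 to 5 when GFP replicate 1 was left out, a setting for which the share of all probe sets is not given. The median member difference was 0.02 for NICD, beside 0.01 over all probe sets, and 43 of 77 were above 0.

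Of the 12 members called higher with the block, 5 were ligand probe sets. wnt3a.S, a canonical Wnt of the dorsal neural tube and tail, read 7.31, 7.42 and 7.46 with GFP and 7.87, 8.07 and 8.01 with NICD. The arrays did not overlap, and the difference was 0.59 ± 0.17 (adjusted p = 0.091, and 0.0112 with the block). For wnt5b.S the GFP arrays at 9.12, 9.03 and 9.12 lay below NICD at 9.87, 9.29 and 9.41, a difference of 0.44 (adjusted p = 0.00756 with the block). Both probe sets of wnt5a-a, with differences of 0.47 and 0.40, and wnt11b.L with 0.29 made up the rest. Outside the ligands, the block called frzb.S (0.52), axin2.L (0.51), fzd10.L (0.42), rspo2.L (0.39), 1 probe set of sfrpx.S (0.34) and 1 of fzd8.S (0.26) higher. It called dvl1.L (-0.41), a probe set of dvl3.L (-0.37) and a dim probe set named frzb (-0.35) lower. No probe set of the copies axin2.S, fzd10.S and frzb.L was called, nor the other probe sets of sfrpx.S and fzd8.S. Means with GFP and NICD were 9.69 and 9.91 in one axin2.S probe set and 7.74 and 7.65 in the other. For dvl1.L, which encodes a Dishevelled, NICD arrays at 6.55, 6.84 and 6.80 lay below GFP arrays at 6.87, 7.27 and 7.28, and the call with the block held without any 1 replicate number. dvl1.L and dvl3.L are named because of these values and not by the naming rule. The rule named wnt5b.S and sfrpx.S for steps between GFP stages, and fzd10.L as the copy of fzd10.S. Their values in this comparison were picked after they were seen. With 1 replicate number left out, the block called 7 to 8 members.

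**Figure D3:**
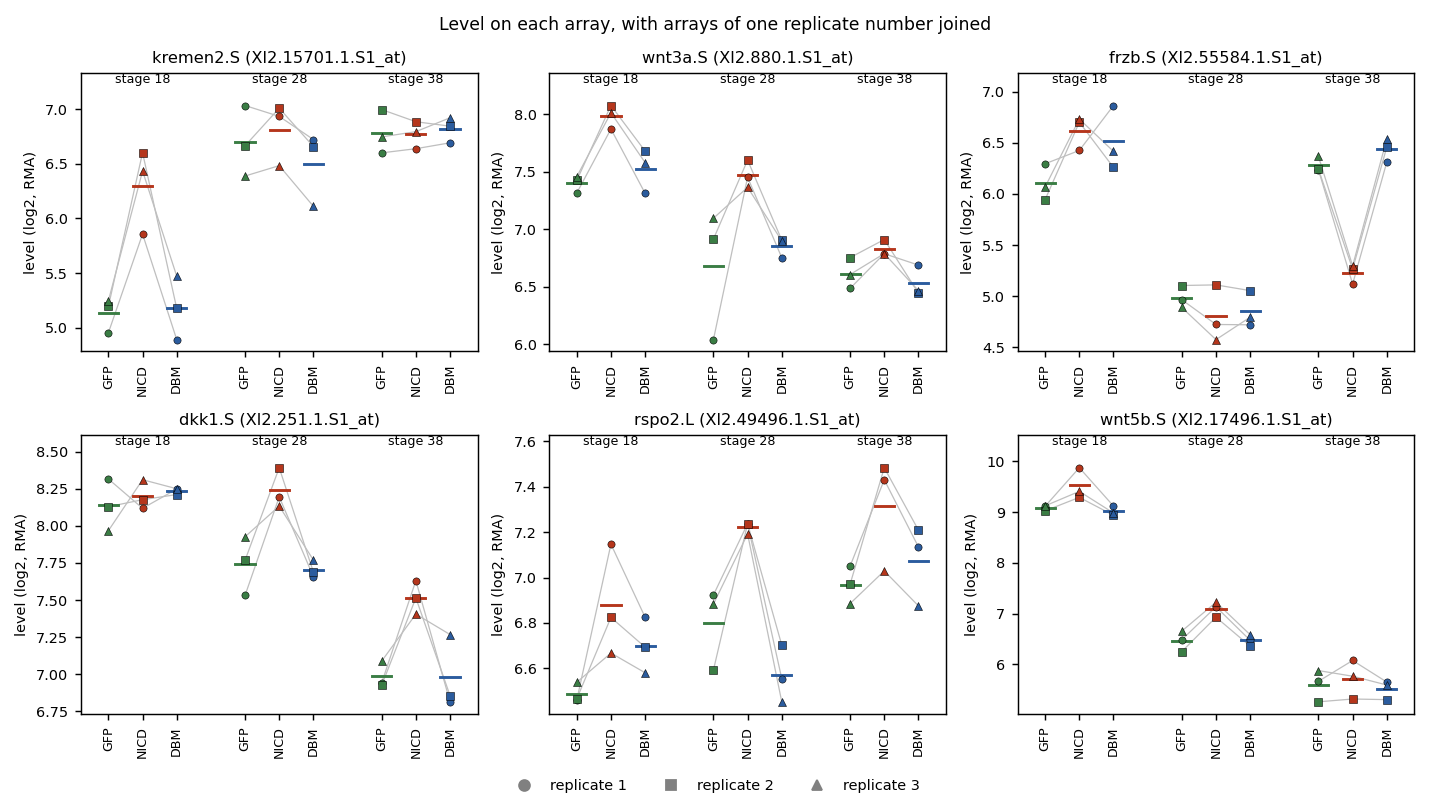
Level (log2, RMA) on each of the 27 arrays for 6 members, with GFP in green, NICD in red and DBM in blue at each stage. Symbols are replicate numbers, grey lines join arrays of the same number at a stage, and bars are group means. NICD arrays of kremen2.S stand above the rest at stage 18, those of wnt3a.S and wnt5b.S at stages 18 and 28, those of dkk1.S at stages 28 and 38, and those of frzb.S below the rest at stage 38.

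At stage 28 the member called with NICD was wnt3a.S. GFP arrays read 6.04, 6.91 and 7.09, NICD arrays 7.45, 7.60 and 7.36, and DBM arrays 6.75, 6.90 and 6.90. NICD lay above all other arrays, at 0.79 ± 0.17 or 1.73-fold over GFP (adjusted p = 0.0338). One low array carried part of this size. Without GFP replicate 1 the difference was 0.47 (adjusted p = 0.118), and the call was also lost without GFP replicate 2 (0.0658) or without NICD replicate 1 (0.0762), replicate 2 (0.172) or replicate 3 (0.0998). With the block the adjusted p was 0.0026, with differences of 1.41, 0.69 and 0.27 by replicate number, and that call held without any 1 of the numbers. With only the 6 arrays of the comparison it was 0.331, and with Benjamini-Yekutieli adjustment 0.371.

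The count of 1 member stands beside 0.65% of all probe sets, and that of 14 with the block, 12 higher and 2 lower, beside 6.19%. As a share of the members, 14 is 18.2%. The median member difference was 0.11, beside 0.01 over all probe sets, and 49 of 77 were above 0. Leaving out GFP replicate 3 raised the count without the block from 1 to 4, and the share of all probe sets for that setting is not given. With 1 replicate number left out the block called 3 to 9, with 3 when number 2 and 4 when number 1 was missing.

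Ligands, receptors, an antagonist and TCF/LEF factors were among those called higher with the block. wnt5b.S read 6.49, 6.25 and 6.66 with GFP and 7.13, 6.93 and 7.22 with NICD, a difference of 0.63 or 1.55-fold that was nearly the same for each number, 0.65, 0.68 and 0.57 (adjusted p = 8.65e-04 with the block, 0.120 without). For lef1.S, GFP arrays at 7.31, 7.63 and 7.82 lay below NICD arrays at 8.37, 8.15 and 8.13, a difference of 0.63 (adjusted p = 0.0163 with the block, 0.0739 without). fzd10.L differed by 0.51 and the 2 probe sets of fzd10.S by 0.37 and 0.40, so that both copies of this receptor were called higher. tcf7l1.S differed by 0.40, rspo2.L by 0.42, and 2 of the 5 probe sets of fzd7.L by 0.32 and 0.29. Both probe sets of dkk1.S were higher as well, by 0.42 and 0.50, so a Wnt antagonist was called in the same direction as the ligands. The 2 lower ones were a probe set of sfrp1.L (-0.25) and the brightest of fzd8.S (-0.25). Here the values of wnt5b.S and the fzd10 copies were again picked after they were seen.

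Other RNA in the embryos differed at that stage too. The presomitic gene msgn1 was higher with NICD in 2 of 2 probe sets, by 0.80 and 0.90, with list means per array of 8.66 to 8.84 against 7.77 to 8.01 with GFP. Globin was lower, by 2.36 in hbd.S, which was called, and by 1.64 in hba3.L, which was not (adjusted p = 0.0973). The mean of these 2 globin probe sets was 7.47 to 8.98 on NICD arrays and 9.72 to 10.5 on GFP arrays. Of 9 neural, 5 muscle, 3 epidermal and 3 serum protein probe sets, 0 were called, with differences of -0.19 to 0.59, -0.02 to 0.49, -0.11 to -0.09 and -1.33 to -0.48. Their part in the Wnt results was not tested.

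At stage 38 the member called was frzb.S, a copy of the gene for the secreted Wnt antagonist Frzb, and it was lower. GFP arrays read 6.24, 6.24 and 6.37, NICD arrays 5.12, 5.27 and 5.30, and DBM arrays 6.31, 6.46 and 6.54. Every NICD array lay below every other array of the stage. The difference from GFP was -1.05 ± 0.15, a 2.08-fold fall (adjusted p = 0.0037), the highest adjusted p with an array left out was 0.0435, and by replicate number the differences were -1.12, -0.98 and -1.07. The call was lost when only the 6 arrays of the comparison were fitted (adjusted p = 0.155). The same probe set differed by 0.52 at stage 18 and -0.18 at stage 28. Its copy frzb.L read 5.61, 6.24 and 6.01 with GFP and 5.66, 5.69 and 5.53 with NICD, with a difference of -0.33 ± 0.19 that was not called in either fit, and the probe set named frzb differed by 0.04. frzb.S is dim as well, with a highest group mean of 6.62.

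This single call stands beside 0.095% of all probe sets, and with the block 4 members, 3 higher and 1 lower, stand beside 1.21%. The 3 higher were both probe sets of dkk1.S (0.53 and 0.38) and 1 of fzd7.L (0.38). In the clearer of the dkk1.S probe sets, GFP arrays at 6.94, 6.92 and 7.09 lay below NICD arrays at 7.63, 7.51 and 7.41 (adjusted p = 0.0246 with the block, 0.108 without). The median member difference was 0.07, beside 0.00075 over all probe sets, and 56 of 77 were above 0. The share of all probe sets above 0 is not given at any stage, and several members are probe sets of the same gene. rspo2.L, which encodes an R-spondin, differed by 0.39, 0.42 and 0.35 at the 3 stages, and the last of these was called in neither fit. With 1 replicate number left out, the block called 1 to 3. The presomitic msgn1.L was still 0.94 higher with NICD at that stage, and its part was not tested.

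**Figure D4:**
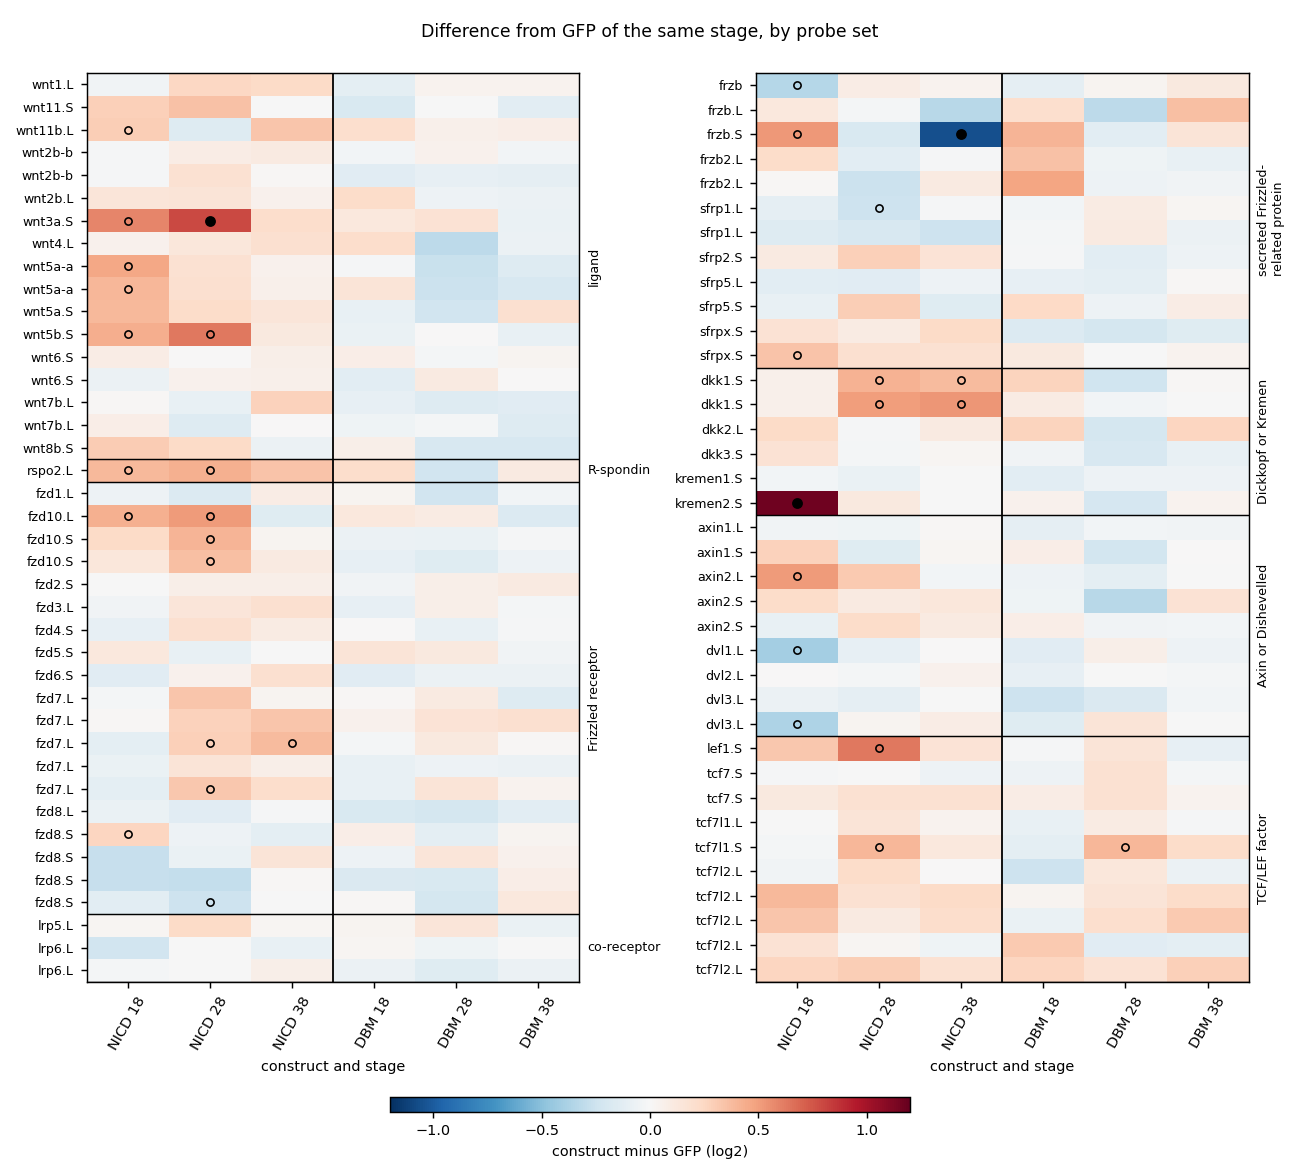
Difference from GFP of the same stage (log2) for each of the 77 probe sets under NICD and DBM, in panels by role, with red for higher and blue for lower. Filled circles mark calls without the block and open circles those only with it. The circles lie in the NICD columns except for tcf7l1.S with DBM at stage 28.

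With DBM, which suppresses Notch signaling, 0 of 77 members were called at stage 18, 0 at stage 28 and 0 at stage 38, where 0.0%, 0.107% and 0.0123% of all probe sets were called. At an unadjusted p below 0.05 there were 5, 5 and 0 of 77 members, beside 1543, 2214 and 636 of all 32635 probe sets. With the block the counts were 0, 1 and 0, beside 0.236%, 1.94% and 0.11% of all probe sets. The 1 was tcf7l1.S at stage 28, where GFP arrays read 6.68, 7.21 and 7.33 and DBM arrays 7.26, 7.55 and 7.61, a difference of 0.40 ± 0.13 (adjusted p = 0.0337 with the block, 0.41 without). That call did not hold with any of the numbers left out. tcf7l1.S differed by 0.40 with NICD at the same stage and against the same GFP arrays.

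The members of lowest p with DBM moved little. At stage 18 they were a probe set of frzb2.L (0.48), a dim probe set of tcf7l2.L (0.32) and frzb.S (0.41). At stage 28 they were tcf7l1.S, wnt4.L (-0.31) and a probe set of axin2.S (-0.33). At stage 38 they were frzb.L (0.36), a probe set of tcf7l2.L (0.31) and tcf7l1.S (0.22). frzb.S thus had values above 0 with both constructs at stage 18, while at stage 38 the difference with DBM was 0.15 beside -1.05 with NICD. Median member differences with DBM were -0.03, -0.05 and -0.02, beside -0.0017, -0.0092 and -0.0054 over all probe sets.

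Set directly against DBM, NICD gave more calls at the tailbud stage than at the others. At stage 18 the member called was kremen2.S, higher by 1.12 ± 0.20 (adjusted p = 0.0059, and 0.0509 without NICD replicate 2), beside 0.812% of all probe sets. With only the arrays of the comparison its adjusted p was 0.3003, and with Benjamini-Yekutieli adjustment 0.0652. With the block 11 were called, 8 higher and 3 lower, beside 6.08%. At stage 28, 5 members of 4 symbols were higher and 0 lower, which is 6.49% beside 1.73%, and with the block 15 were higher and 2 lower, beside 7.67%. At stage 38, 1 was higher and 1 lower, beside 0.628%, and with the block 5 and 2, beside 3.26%.

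rspo2.L led the tailbud calls. NICD arrays read 7.24, 7.24 and 7.19 and DBM arrays 6.55, 6.70 and 6.45, and the GFP arrays at 6.92, 6.59 and 6.88 lay below NICD and overlapped DBM. NICD exceeded DBM by 0.65 ± 0.13 or 1.57-fold (adjusted p = 0.0059), and by 0.59 without DBM replicate 3 (0.0512). Both probe sets of dkk1.S were higher with NICD. In one the arrays read 8.20, 8.39 and 8.13 against 7.66, 7.69 and 7.77, a difference of 0.54 ± 0.12 (adjusted p = 0.0167), and in the other 7.67, 8.17 and 7.95 against 7.15, 7.47 and 7.21, a difference of 0.66 ± 0.15 (0.0178). A probe set of fzd10.S differed by 0.51 ± 0.12 (0.0183). wnt4.L, a Wnt of the kidney and neural tube, read 6.80, 7.08 and 7.06 with NICD and 6.52, 6.63 and 6.43 with DBM, a difference of 0.45 ± 0.11 (0.0325), and its GFP arrays at 6.71, 6.87 and 6.95 overlapped only those of NICD.

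These tailbud calls were close to the threshold, and with Benjamini-Yekutieli adjustment 0 of the 5 passed (adjusted p = 0.065 to 0.356). Without NICD replicate 2 or DBM replicate 1 only rspo2.L stayed called, at counts of 1, without DBM replicate 3 there were 2, without DBM replicate 2 or NICD replicate 3 there were 3, and without NICD replicate 1 all 5 stayed. With the block, rspo2.L, fzd10.S, wnt4.L and the second dkk1.S probe set held without any 1 number. Members called only with the block included wnt3a.S (0.62), wnt5b.S (0.62), 1 of the 2 probe sets of axin2.S (0.44) and sfrp2.S (0.41), all higher. Both probe sets of sfrp1.L (-0.35 and -0.30) were also called only with the block, and were lower. wnt5b.S was again chosen after its values were seen. At stage 38, frzb.S was lower with NICD than with DBM by 1.21 ± 0.15 (adjusted p = 2.45e-04, and 0.0876 with only the arrays of the comparison). Its copy frzb.L was lower by 0.69 with the block alone (adjusted p = 0.0158), from 6.21, 6.33 and 6.40 with DBM to 5.66, 5.69 and 5.53. dkk1.S was higher by 0.54 ± 0.12 (adjusted p = 0.0344), and this call was lost without DBM replicate 1 (0.192) or 2 (0.172) and without NICD replicate 1 (0.245) or 2 (0.11), with only the arrays of the comparison (0.437) and with Benjamini-Yekutieli adjustment (0.377).

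Whether an effect changed from stage to stage was tested as a difference of differences. Without the block 0 of 77 members were called in any of the 4 such tests, where 0.0981% of all probe sets were called for NICD and 0.0245% for DBM from stage 18 to 28, and 0.00306% and 0.0% from stage 28 to 38. At an unadjusted p below 0.05 the members numbered 9, 8, 4 and 3 of 77, beside 2418, 2504, 1024 and 1009 of all 32635 probe sets. With the block the counts were 3, 3, 1 and 0, beside 3.18%, 2.61%, 0.346% and 0.0214%. The NICD effect on kremen2.S was smaller at stage 28 than at stage 18 by 1.05 (adjusted p = 5.55e-04 with the block, 0.248 without), and that on frzb.S was lower at stage 38 than at stage 28 by 0.87 (0.0266 with the block, 0.585 without).

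Members of the fixed list that were called with neither construct against GFP in either fit included wnt1.L, wnt4.L, wnt5a.S, lrp6.L, sfrp2.S, both sfrp5 copies, dkk3.S, kremen1.S, dvl2.L, tcf7.S and tcf7l1.L. For NICD their differences ran from -0.23 in a probe set of lrp6.L to 0.39 in wnt5a.S, both at stage 18. No probe set carried the symbol rspo3. Genes with a .L and a .S symbol among the members were axin1, axin2, frzb, fzd8, fzd10, sfrp5 and tcf7l1, and wnt2b and wnt5a had a pair of symbols each under another spelling (wnt2b-b and wnt2b.L, wnt5a-a and wnt5a.S).

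The remaining genes of the pathway were taken from a list of 156 probe sets for 101 symbols, grouped as secretion and ligand control, other receptors, planar polarity, cytoplasm, nucleus and target genes. With NICD, 9 were called at stage 18 (5.77% beside 1.61%), 8 at stage 28 (5.13% beside 0.65%) and 1 at stage 38 (0.641% beside 0.095%). With DBM the counts were 0, 0 and 0. With the block they were 31, 24 and 5 for NICD, or 19.9%, 15.4% and 3.21% beside 13.2%, 6.19% and 1.21% of all probe sets. For DBM they were 0, 4 and 0 with the block beside 0.236%, 1.94% and 0.11% of all probe sets. At stage 18 target genes made up 5 of the 7 higher calls, namely tbxt.S (0.79 ± 0.13), the mesodermal T-box factor Brachyury, both copies of vegt (0.83 and 0.86), cdx1.S (0.95) and cdx4.L (0.57), which are posterior homeobox genes. The cytoplasmic csnk1d.S (0.59) and tnks.S (0.67), which encode a casein kinase and the tankyrase that marks Axin for destruction, were higher too. The 2 lower ones were both copies of sizzled, szl.S (-1.41 ± 0.20) and szl.L (-1.22 ± 0.23), a secreted Frizzled-related protein known in Xenopus as an inhibitor of BMP-regulating proteases.

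At stage 28, 7 of the 8 higher calls were target probe sets, with 3 for sp5l.S (0.86, 0.64 and 0.69), cdx4.L (0.68), tbxt.S (0.66) and both copies of msgn1. The last was apcdd1.L (0.36), a membrane inhibitor of Wnt signaling. At stage 38 it was msgn1.L alone. Over all 46 target probe sets the median NICD difference was 0.15, 0.22 and 0.18 at the 3 stages, beside at most 0.01 over all probe sets and 0.02, 0.11 and 0.07 over the members. The list was chosen with earlier results known, and some of its target genes, msgn1 and tbxt among them, are also genes of the tail's mesoderm. In GFP embryos 93 of the 156 fell and 13 rose from stage 18 to stage 28, and 68 fell and 13 rose from stage 28 to stage 38. Over all probe sets the shares were 29.4% lower and 22.0% higher, then 22.4% lower and 18.8% higher.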

How the data were processed

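Log2 values were the RMA summaries that the authors deposited, without further normalization. The values of a second deposited table, with 27 log2 columns and 6 columns of adjusted p-values from the authors' limma comparisons, were not used. Its column names were read, and in them the stage 18 arrays numbered 2 and 3 share a date code. Groups and replicate numbers came from the array titles. Gene symbols came from the platform annotation, and 15394 were looked up by Entrez identifier in RefSeq names of assembly Xenopus_laevis_v10.1, which changed 2. A symbol stood for 15505 probe sets, 279 had several genes and 16851 had none. Of the members, 5 probe sets of 3 symbols (wnt5a-a, wnt2b-b and frzb) were not found in RefSeq.

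One model with 9 groups was fitted to 27 arrays (R 4.3.3, limma 3.58.1, statmod 1.5.0; lmFit, eBayes). Within each comparison the p-values over all probe sets had a Benjamini-Hochberg adjustment, with a threshold of 0.05. With 3 arrays a group, precision is limited by their number. The titles do not say that replicate numbers pair arrays, but deviations from group means of same-numbered arrays of a stage correlated at 0.454 to 0.811 in all 27 pairs, so blocked values are given. Number 1 stood apart from both others at stage 18, where 2 and 3 deviated together as well. The block was fixed within stages and random between them (consensus correlation 0.463). The code of the fit was run on simulated data. These had no effect of replicate number, so the run could not test whether the block suits the real arrays.

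Members and lists were chosen with earlier results of these data known. Named by rule were members passing in a comparison within a stage, the 3 of lowest p where none passed, and a fixed set. The 6 largest rises and 6 largest falls between GFP stages and the copies of all these genes were named too. The rule's part on sequences was not used here. Alternatives were the block, only the arrays of a comparison, each array left out, no dim probe sets (limit 6.92), repeated quantile normalization, trend and robust variance, array weights and Benjamini-Yekutieli adjustment. Chosen after the data were seen were the stage 18 arrays of a single date code and the block without 1 number.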

Additional observations from a re-analysis of the deposited data

Results flagged for a closer look

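A difference between stages in the effect of a construct was called in 7 cases with the replicate block, and in none of them without it. They are 3.9% of the members for NICD and 3.9% for DBM from stage 18 to stage 28, near the 3.18% and 2.61% of all probe sets, and 1.3% for NICD from stage 28 to stage 38, beside 0.346%. For NICD from stage 18 to stage 28 the effect on kremen2.S changed by -1.05, on frzb.S by -0.70 and on 1 probe set of fzd7.L by 0.44. For NICD from stage 28 to stage 38 that on frzb.S changed by -0.87. For DBM from stage 18 to stage 28 the effect on wnt4.L changed by -0.53, on a probe set of dkk1.S by -0.50 and on tcf7l1.S by 0.52. The adjusted p without the block was 0.248 to 0.585 over these 7. Single outlying arrays were not looked for within groups of 3.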

How the results depend on the processing

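Within stages the count of members called was higher with the replicate block in each NICD comparison. The block gave 15, 14 and 4 for NICD against GFP at stages 18, 28 and 38 (1 each without), 1 for DBM at stage 28 (0 without), 11, 17 and 7 for NICD against DBM (1, 5 and 2 without), and, for differences of an effect between stages, 3 and 1 for NICD and 3 for DBM at the first interval (0 without). For these blocked counts, leaving out a number gave 7 to 8, 3 to 9 and 1 to 3 for NICD against GFP, 0 to 1, 0 to 0 and 0 to 0 for DBM, and 3 to 9, 8 to 12 and 1 to 3 for NICD against DBM. Within stages every call without the block was among those with it. Between GFP stages the block gave 53 and 37 calls (57 and 37 without), Benjamini-Yekutieli adjustment 44 and 28, only the arrays of the comparison 49 and 30, and the exclusion of dim probe sets 41 and 31. The shares of all probe sets called under these settings between GFP stages are not given.

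With only the arrays of the comparison the counts were 0, 0 and 0 for NICD against GFP, and 0, 6 and 0 for NICD against DBM, where fewer arrays estimate the spread. Array weights gave 8 and 7 for NICD at stages 18 and 28, 2 and 12 for NICD against DBM at the same stages, and 2 for the change of the NICD effect to stage 28. Benjamini-Yekutieli adjustment left 0 for NICD at stage 28, and 0, 0 and 1 for NICD against DBM. Without dim probe sets, which removes kremen2.S and frzb.S by construction, counts were 0, 2 and 0 for NICD against GFP and 0, 5 and 1 against DBM. Quantile normalization gave 2 for NICD at stage 38. The stage 18 arrays of a single date code gave 4 for NICD and 1 for its change to stage 28. For these settings, and with arrays or replicate numbers left out, the shares of all probe sets called are not given here. Such counts show how the calls depend on the setting and are no result about the members.

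Leaving out arrays gave 1 to 5, 0 to 4 and 1 to 1 for NICD against GFP, 0 to 1, 1 to 5 and 1 to 3 for NICD against DBM, 49 to 53 and 30 to 37 between GFP stages, and 0 to 0 for DBM and for the changes between stages. The naming rule without its fixed set gave 44 results, which were followed under all these settings. In these refits 534 values kept their direction and side of the threshold, 42 lost a call, 1 gained it and 0 reversed. The 44 include the largest steps between GFP stages, and the DBM results among them had no call to lose. Results named only by the fixed set are not in this tally. With 3 arrays a group and 31 dim members, the smallest difference called within a stage without the block was 0.45, and an absent call is no sign of an absent change.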
